A study of Drosophila melanogaster with 8 samples.

Results

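The genes CG6296, CG6295, CG17192, CG17191, CG6283, CG6277 and CG6271 stand next to each other on chromosome arm 3R of Drosophila melanogaster and encode pancreatic-type lipases, also called neutral lipases. They were taken by name from the count table, which held all 7 of them among 12082 rows that name a gene. The rule itself uses no measured value, although the genes were proposed with earlier results of these data known. Transcripts were counted in polyA RNA of whole females of 2 genotypes, with 4 libraries each. The mutants carried the allele combination DHR78[1]/[3] of the nuclear receptor gene Hr78 (DHR78) together with btl>DHR78, a transgene that supplies Hr78 through the driver of btl (breathless), which encodes an FGF receptor of tracheal cells. The controls carried btl>DHR78 alone, so both genotypes had the transgene. All females were 1 week old and had been fed 8% yeast and 9% sugar. Each library pooled RNA of 2 collections of 12 females, out of 8 collections per genotype.

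Pancreatic-type lipases are secreted enzymes that split triglycerides, and relatives of this family digest dietary fat in the gut of animals from insects to mammals. In the fly, enterocytes of the midgut secrete such enzymes into the gut lumen, take up the released fatty acids and pass them on to the blood bound to lipoproteins. The family is recognised by sequence, and the substrates of the single genes described here are mostly taken from that likeness. Loss of Hr78 is known to kill larvae with tracheal defects, and expression of the receptor in the trachea allows adults to be studied. The comparison therefore asks which adult transcripts differ when Hr78 is mutant outside the cells served by the transgene.

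Total counts lay between 22608378 and 33054191 in the mutant and between 19544675 and 28106635 in the control, where 3 counts corresponded to 0.0908 to 0.153 CPM, the unit of counts scaled to a common library total. Hr78 itself was at 69.3 to 73.4 CPM in the mutant and 118 to 127 CPM in the control, and its reads include those of the transgene. Mutant replicate 2 stood apart from all other libraries. Only 29 rows had a count of 0 there, against 572 to 731 rows in each of the other libraries, so results below are also given without it where they change.

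Transcripts of 3 of the 7 lipase genes were lower in the mutant, by 1.99-fold to 4.13-fold. CG6296, CG6295 and CG17192 fell, and no member rose, either by edgeR, by DESeq2 or at an unadjusted p under 0.05 (0 genes each). CG17191, CG6283, CG6277 and CG6271 did not pass the threshold. For comparison, 19.6% of the 10525 genes tested passed an adjusted p of 0.05 in edgeR's quasi-likelihood test with Benjamini-Hochberg adjustment over all genes, 11.1% as lower and 8.46% as higher. The median log2 fold change (mutant over control) of the 7 members was -0.64, and that of all genes tested was 0.01. All 7 passed the filter on low counts. Without mutant replicate 2, or without mutant replicate 4, CG17192 alone stayed past the threshold.

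Added over the 7 genes, transcripts reached 174, 162, 242 and 185 CPM in mutant replicates 1 to 4, against 521, 396, 302 and 494 CPM in control replicates 1 to 4. Every mutant library lay below every control library. The mean was 191 ± 35.5 CPM in the mutant and 428 ± 99.6 CPM in the control (SD, n = 4 each), so the mutant held 44.6% of the control level. The members past the threshold, CG6296, CG6295 and CG17192, were together at 178 ± 35.9 CPM in the mutant and 413 ± 97.1 CPM in the control. The other 4 genes were together at 13.3 ± 2.41 CPM in the mutant and 14.9 ± 4.12 CPM in the control. This split was made by the calls in the same data, so the contrast between the 2 groups is no separate result. CG6295 makes up most of the first group. The sum over the 7 genes does not depend on how reads were divided among the close copies of the cluster. It would depend on whether reads shared by the copies were dropped, which is not known. It was measured in whole animals, where fewer midgut cells and less RNA per cell cannot be told apart.

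**Figure D1:**
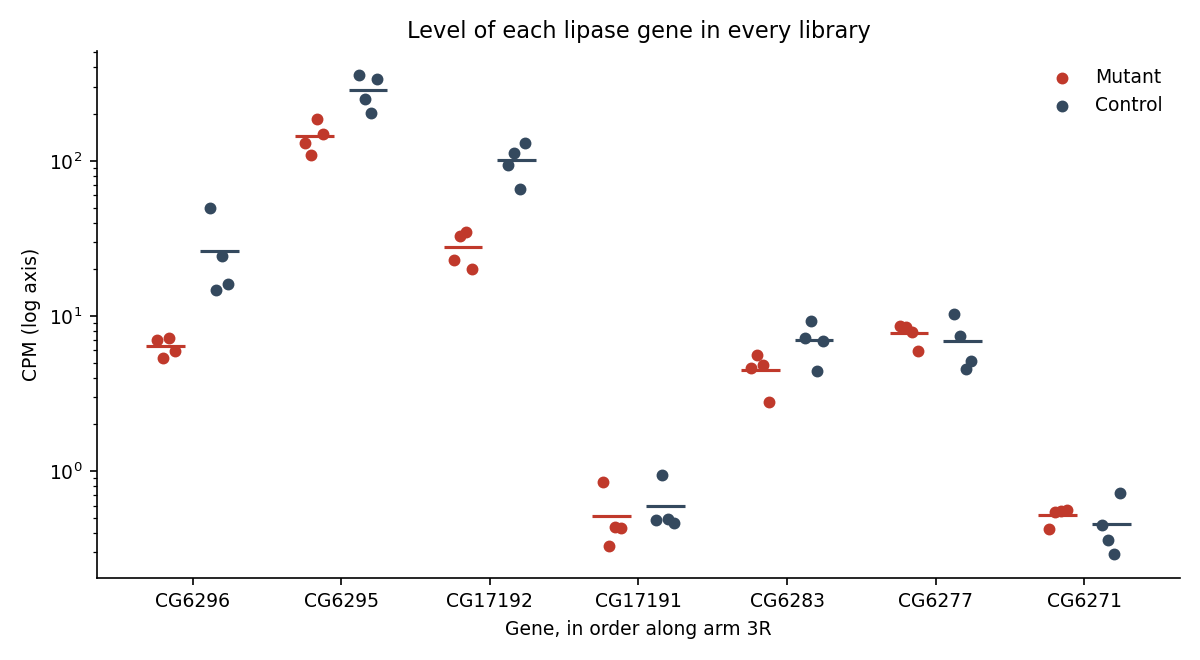
Level of each lipase gene in every library, in CPM on a log axis, with the genes in their order along 3R, points for single libraries and a line at the mean of 4. The mutant points of CG6296, CG6295 and CG17192 lie below all control points, and the points of the other 4 genes overlap.

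CG17192 had the smallest adjusted p of the members. It was at 23.1, 32.8, 34.6 and 19.99 CPM in mutant replicates 1 to 4, against 93.9, 113, 66.1 and 129 CPM in control replicates 1 to 4. The highest mutant library stood well under the lowest control library. The mean was 27.6 ± 7.19 CPM in the mutant and 101 ± 27.2 CPM in the control (SD, n = 4 each). Its log2 fold change was -1.86 (standard error 0.26; edgeR adjusted p = 0.00368), which is a level 3.64-fold higher in the control. Permuting the libraries, in an exact two-sided test, gave p = 0.0286, below which 4 libraries against 4 cannot go. CG17192 stayed past the threshold in all 14 alternatives, with log2 fold changes between -2.02 and -1.72 and adjusted p values up to 0.0437, reached with the replicate number as a block.

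CG6296 had the largest fold change of the 7 members, with control libraries that differed widely. It was at 6.96, 5.39, 7.26 and 5.97 CPM in mutant replicates 1 to 4, against 49.9, 14.8, 24.5 and 16.0 CPM in control replicates 1 to 4. The mutant libraries were close to each other, whereas control replicate 1 stood above the other controls. The mean was 6.4 ± 0.870 CPM in the mutant and 26.3 ± 16.3 CPM in the control (SD, n = 4 each). The log2 fold change was -2.05 (standard error 0.43; edgeR adjusted p = 0.0172), and without control replicate 1 it was -1.52 with an adjusted p of 0.00137. The call was lost without mutant replicate 2 (adjusted p 0.0608) and without mutant replicate 4 (0.0517), within a range of 8.19e-07 to 0.0608 over the 14 alternatives.

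CG6295 was the most abundant member in every library, and it fell by a smaller fold. It was at 129.7, 109, 187 and 149.7 CPM in mutant replicates 1 to 4, against 359, 250.1, 202 and 335 CPM in control replicates 1 to 4. The genotypes did not overlap, but the highest mutant library, replicate 3, came close to the lowest control library, also replicate 3. The mean was 144 ± 33.2 CPM in the mutant and 286 ± 73.1 CPM in the control (SD, n = 4 each), and the log2 fold change was -0.996 (standard error 0.23; edgeR adjusted p = 0.0261). This call was the least stable of the 3. It was lost with the replicate number as a block (adjusted p 0.102) and without mutant replicate 1, 2 or 4 or control replicate 1 or 4 (0.0601 to 0.0716), while the log2 fold change stayed between -1.15 and -0.87 in all 14 alternatives.

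The genotypes were fully separated for these 3 genes and for no other member. Across all genes tested, such separation of 4 mutant from 4 control libraries was found for 25%.

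The other 4 members overlapped between the genotypes. CG6283 was at 4.64, 5.57, 4.86 and 2.81 CPM in mutant replicates 1 to 4, against 7.20, 9.30, 4.45 and 6.92 CPM in control replicates 1 to 4. Its mutant mean was the lower one, but control replicate 3 lay among the mutant libraries. The log2 fold change was -0.64 (standard error 0.25; edgeR adjusted p = 0.104). Without control replicate 3 the value was -0.80 with an adjusted p of 0.0366, the smallest of a range up to 0.219 over the alternatives.

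CG6277 was at 8.67, 8.54, 7.90 and 5.93 CPM in mutant replicates 1 to 4, against 10.3, 7.40, 4.55 and 5.16 CPM in control replicates 1 to 4. The control libraries spanned the whole range of the mutant ones. Its log2 fold change was 0.17 (standard error 0.25; edgeR adjusted p = 0.676).

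CG17191 and CG6271 were barely detected. CG17191 had 28, 9, 11 and 10 counts in mutant replicates 1 to 4, against 13, 21, 10 and 9 counts in control replicates 1 to 4. CG6271 had 14, 15, 14 and 13 counts in mutant replicates 1 to 4, against 12, 8, 6 and 14 counts in control replicates 1 to 4. At this depth neither gene showed a detectable difference. The log2 fold changes were -0.19 with a standard error of 0.37 for CG17191 and 0.20 with a standard error of 0.31 for CG6271, with adjusted p values of 0.757 and 0.692 (edgeR).

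Set on a scale per kilobase of annotated exon, the members formed a steep order. CG6295 led with 132 ± 30.4 CPM per kilobase in the mutant and 263 ± 67.0 in the control (SD, n = 4 each). CG17192 followed with 26.3 ± 6.84 CPM per kilobase in the mutant and 95.6 ± 25.8 in the control. These top places did not overlap with each other or with the next gene in either genotype.

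The middle of the order differed between the genotypes. CG6296 was at 3.01 ± 0.409 CPM per kilobase in the mutant and 12.4 ± 7.68 in the control. CG6283 was at 4.13 ± 1.08 in the mutant and 6.43 ± 1.83 in the control, and CG6277 at 7.15 ± 1.17 in the mutant and 6.32 ± 2.40 in the control, on the same scale. In the control these 3 genes overlapped, with CG6296 on top, whereas in the mutant CG6277 stood above both others and CG6283 and CG6296 overlapped. CG17191 and CG6271 came last in both genotypes, at 0.471 and 0.488 CPM per kilobase in the mutant and 0.547 and 0.426 in the control, and could not be ranked against each other.

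**Figure D2:**
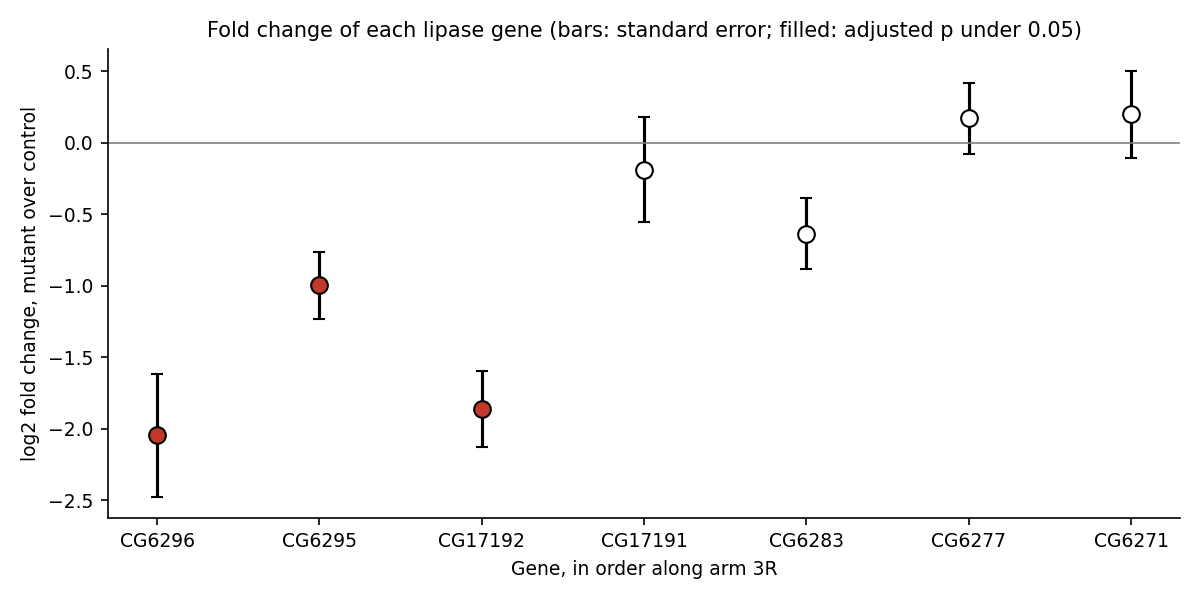
Log2 fold change (mutant over control) of each lipase gene in order along 3R, with its standard error, filled where the adjusted p is under 0.05. The filled points of CG6296, CG6295 and CG17192 stand at the left end, and the 4 open points to their right include the values above 0 of CG6277 and CG6271.

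In the Release 6 annotation the 3 genes that fell are consecutive. The order along 3R is CG6296, CG6295, CG17192, CG17191, CG6283, CG6277 and CG6271, all on the minus strand, with no other gene starting between them. Most have 2 exons and an exonic length of 1052 to 1091 bases, while CG6296 has 3 exons and 2127 bases. All 7 lie inside the span of RYa-R, a neuropeptide receptor gene on the plus strand, and share no exon base with it. Coordinates are not given, because the build named in the submitters' processing notes is dm3.

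Genes next to the cluster did not pass the threshold in either direction, by edgeR or by DESeq2, and 1 had an unadjusted p under 0.05. Of the 5 genes on each side, 9 were in the table and 7 could be tested, with a median log2 fold change of 0.03 against 0.01 for all genes tested. Since 19.6% of all genes tested passed, the lack of a call among 7 genes does not set them apart. RYa-R, whose span holds the cluster, was at 0.336 to 0.790 CPM in the mutant and 0.258 to 0.767 CPM in the control, with a log2 fold change of 0.00 (standard error 0.22). CG31077, the neighbour on the side of CG6296, was at 53.8 ± 10.3 CPM in the mutant and 47.2 ± 8.84 CPM in the control (SD, n = 4 each; adjusted p 0.497, edgeR). That 1 gene was TwdlT, which encodes a cuticle protein of the Tweedle family. Its log2 fold change was -0.73 (standard error 0.26; edgeR adjusted p = 0.0748), and it passed the threshold as lower without mutant replicate 1 or without control replicate 1.

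The make-up of the cluster's transcripts was compared within libraries, which leaves scaling between libraries out of the measure. CG6277 took 4.97%, 5.27%, 3.26% and 3.20% of the summed counts in mutant replicates 1 to 4, against 1.98%, 1.87%, 1.504% and 1.05% in control replicates 1 to 4. The share was higher in every mutant library than in every control library, although the level of CG6277 itself overlapped. The same held for CG6271, at 0.228% to 0.339% in the mutant and 0.0860% to 0.146% in the control, from few counts. Most of the sum comes from CG6296, CG6295 and CG17192, so their fall raises the share of a member whose level does not change. The share of CG17192 was 14.6% ± 4.03 in the mutant and 23.7% ± 4.65 in the control, and that of CG6295 was 74.8% ± 5.75 in the mutant and 66.7% ± 2.46 in the control (SD, n = 4 each).

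**Figure D3:**
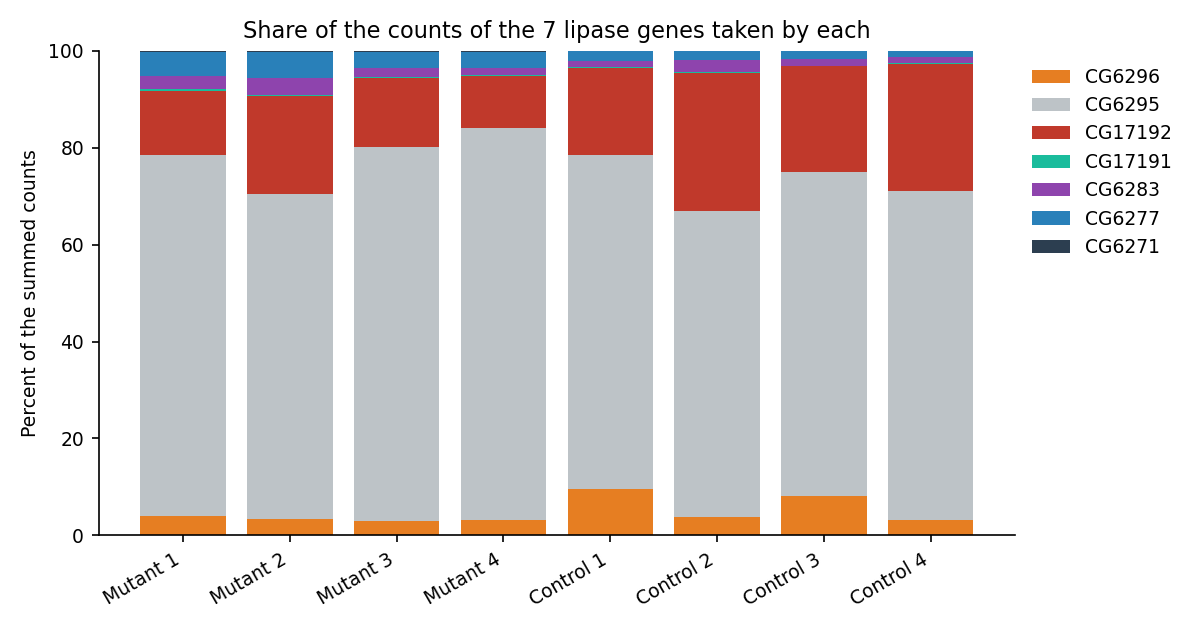
Percent of the summed counts of the 7 lipase genes taken by each of them, in the 4 mutant and 4 control libraries. CG6295 takes 67.1% to 80.7% in the mutant libraries and 63.2% to 68.8% in the control libraries, and the share of CG6277 is larger in every mutant library.

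Ratios between members were compared pair by pair, and no pair passed the correction for 10 tests. With 4 libraries against 4, a pair at the smallest possible p could not pass this correction by itself, however large its difference. That no pair passed is therefore set largely by the design. Of the 10 pairs among the 5 members with a mean of at least 1 CPM, 5 had ratios that did not overlap between the genotypes. The share of such pairs among other genes was not measured, while 25% of single genes tested were separated in this way. The pairs also share genes. Most of the 5 set a gene called lower against one that was not, and so largely restate the fold changes. The log2 ratio of CG17192 to CG6277 was 1.81 ± 0.307 in the mutant and 3.91 ± 0.596 in the control (SD, n = 4 each), a difference of -2.10 with a standard error of 0.34. The ratio of CG6296 to CG6277 differed by -2.11 (standard error 0.36), that of CG6295 to CG6277 by -1.22 (0.33) and that of CG17192 to CG6283 by -1.22 (0.19). The ratio of CG6283 to CG6277, a pair in which neither gene passed the threshold by itself, differed by -0.87 (0.24). Each of these 5 pairs gave p = 0.0286 in an exact two-sided permutation of libraries, the smallest possible, and 0.0571 after adjustment over the 10 pairs. For CG6296 against CG17192, the genes with the largest falls, the ratio differed by -0.01 with a standard error of 0.57, which leaves a wide range of possible differences.

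Lipases of the same family outside the cluster included genes called in both directions. Of 23 listed genes 17 were in the table and 16 could be tested, of which 2 fell and 2 rose, leaving 12 that did not pass the threshold, with a median log2 fold change of 0.15. These counts are near the shares of all genes tested, 11.1% lower and 8.46% higher. CG6847 fell, at 7.04 ± 0.546 CPM in the mutant and 10.5 ± 0.344 CPM in the control. CG13282 also fell, at 2.58 ± 0.299 CPM in the mutant and 3.70 ± 0.489 CPM in the control (SD, n = 4 each). CG5665 rose by 1.31 and CG10357 by 1.10 on the log2 scale, both with control levels below 1 CPM (adjusted p of the 4 genes 0.00142 to 0.0352, edgeR). The calls of CG13282 and CG10357 were each lost in several of the 14 alternatives, which left 1 lower gene in 6 of the 8 fits that omit a library.

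Acid lipases, a separate family that includes the midgut enzyme gene magro (mag), did not pass the threshold. Of 22 listed genes 19 were in the table and 9 could be tested, with a median log2 fold change of -0.09. As 19.6% of all genes tested passed, the lack of a call among 9 genes does not set this family apart. The count at an unadjusted p under 0.05 was 1, that of magro. It was at 20.1, 31.6, 20.8 and 19.3 CPM in mutant replicates 1 to 4, against 37.9, 27.3, 35.8 and 47.8 CPM in control replicates 1 to 4, and mutant replicate 2 overlapped the controls. Its log2 fold change was -0.69 (standard error 0.22) with an adjusted p of 0.0662, and without mutant replicate 2 it was -0.89 with an adjusted p of 0.0140 (edgeR). DESeq2 called it lower with an adjusted p of 0.00764, within a range of 0.00764 to 0.195 over the alternatives. In mutant replicate 2 a further 5 acid lipase genes were over 10 times as high as in any other library. CG31872, for instance, was at 45.1 CPM there and at 0.0489 CPM or less elsewhere. None of the 7 cluster members showed such a rise in that library.

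Among genes of lipid uptake and carriage 5 fell and 1 rose, of 16 tested from a list of 17. For all genes tested the shares were 11.1% lower and 8.46% higher. The median log2 fold change of the list was -0.14. The largest falls were those of acyltransferase genes of triglyceride synthesis that neighbour each other, CG1946 and Dgat2, while CG1941 of the same group had a log2 fold change of -0.07 (standard error 0.13; edgeR adjusted p = 0.758). CG1946 was at 1.25 ± 0.157 CPM in the mutant and 3.99 ± 1.24 CPM in the control, and Dgat2 (CG1942) at 0.809 ± 0.187 CPM in the mutant and 1.63 ± 0.256 CPM in the control. The lipoprotein gene apolpp was at 1482 ± 33.2 CPM in the mutant and 1847 ± 99.7 CPM in the control, and the lipid droplet gene Lsd-2 at 704 ± 10.3 CPM in the mutant and 813 ± 23.7 CPM in the control (SD, n = 4 each). LpR2, a lipoprotein receptor gene, also fell, by 0.19 on the log2 scale. The gene that rose was Mtp, which loads lipid onto lipoproteins, by 0.18 on the log2 scale. LpR2 and Mtp were named after their values were seen, and both calls were lost in some alternatives. Adjusted p values from edgeR were 0.00110 to 0.0334 over these 6 genes.

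Of 12 genes listed as regulators of gut lipases or digestive enzymes, 3 fell, namely Hr78, GATAe and foxo. Hr78 is the mutated gene and was listed as a check of the labels, so its fall adds nothing about the regulators. None rose (0 also in DESeq2 and at an unadjusted p under 0.05). For all genes tested the shares past the threshold were 11.1% lower and 8.46% higher. At an unadjusted p under 0.05, 8 of the 12 were lower, Hr78 included. The median log2 fold change was -0.16, and 11 of the 12 lay below 0, against 5013 of the 10525 genes tested. GATAe, the GATA factor gene of the midgut, was at 15.6 ± 2.09 CPM in the mutant and 21.7 ± 2.21 CPM in the control (SD, n = 4 each), and its log2 fold change was -0.48 (standard error 0.10; edgeR adjusted p = 0.0101). The insulin-responsive transcription factor gene foxo fell by 0.16 on the log2 scale (adjusted p 0.0230, edgeR), a call that was lost with upper quartile scaling and without mutant replicate 1 or 4 or control replicate 2 or 3. Hr96, the nuclear receptor gene known for control of magro, was at 65.3 to 69.8 CPM in the mutant and 67.6 to 73.9 CPM in the control, and did not pass the threshold. With the replicate block or in DESeq2, 6 of the 12 were called lower, and without mutant replicate 2 it was 5, Hr78 among them each time.

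Markers of enterocytes, the cells expected to hold these transcripts, were all detected. Of 8 markers 2 fell, alphaTry and GATAe, and 6 did not pass the threshold, where 11.1% of all genes tested were lower. The level of alphaTry, a trypsin gene, was 708 ± 117 CPM in the mutant and 1551 ± 414 CPM in the control, whereas the trypsin gene betaTry was at 436 ± 110 CPM in the mutant and 330 ± 84.4 CPM in the control (SD, n = 4 each). The summed level of the 8 markers, set mainly by the trypsins, was 1341 to 1825 CPM in the mutant and 1900.4 to 2994 CPM in the control. Of this, alphaTry alone was at 602 to 827 CPM in the mutant and 1176 to 2142 CPM in the control. Besides alphaTry and GATAe, every marker overlapped between the genotypes and did not pass the threshold. The sum therefore does not stand for the markers as a group. The transcription factor gene nub had a log2 fold change of -0.19 (standard error 0.19), and betaTry one of 0.40 (standard error 0.24). Myo31DF, a myosin gene of the enterocyte brush border, was at 126 ± 6.44 CPM in the mutant and 127 ± 8.84 CPM in the control, and the septate junction genes mesh, Ssk and Tsp2A had log2 fold changes of -0.29, 0.11 and 0.00 (standard errors 0.20, 0.16 and 0.19). These junction genes overlapped between the genotypes, and whether the level of the lipases follows the number of enterocytes was not tested.

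Among markers of other cell types, 1 of 4 enteroendocrine markers (pros) and 1 of 2 tested fat body markers (apolpp) were lower. Of 2 muscle markers 1 (Mlc1) was higher. Across all genes tested, 11.1% were lower and 8.46% higher, so these lists are too short to be set apart from that share. DESeq2 called the same number of enteroendocrine and muscle markers, and both tested fat body markers as lower. The second of these, the fatty acid synthase gene FASN1, had a log2 fold change of -0.39 (standard error 0.13; edgeR adjusted p = 0.0679). The 2 progenitor, 2 Malpighian tubule and 2 egg markers did not pass the threshold in edgeR or DESeq2, and 0 of them had an unadjusted p under 0.05. Summed levels overlapped between the genotypes for the enteroendocrine, progenitor, muscle, tubule and egg markers. For the fat body markers they were 2429 to 2707 CPM in the mutant and 3050.2 to 3601 CPM in the control, with no overlap. Of single genes tested, 25% had no overlap either. This sum is made up almost wholly of apolpp and FASN1, and FASN1 by itself overlapped between the genotypes. It therefore does not stand for the fat body markers as a group. The fat body marker Lsp2 was near the detection limit in all libraries, at 1.14 CPM or less. The part of these cell types in the levels of the lipase genes was not tested.

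**Figure D4:**
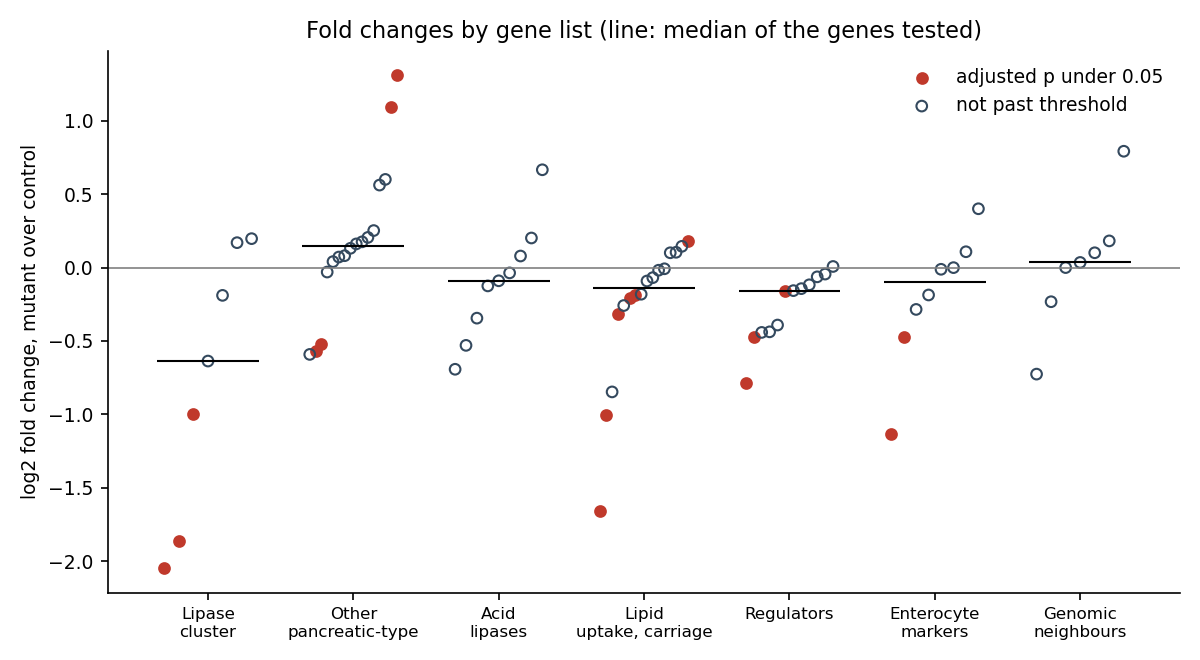
Log2 fold change (mutant over control) of every tested gene in 7 lists, filled where the adjusted p is under 0.05, with a line at the list's median. The lipase cluster holds the lowest points, of CG6296 and CG17192, and a median of -0.64, while the other lists have medians between -0.16 and 0.15.

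Genes elsewhere in the genome were ranked by their likeness to the mean of the cluster. Within genotypes the members did not all vary together (r = -0.32 for CG6296 with CG17192 and 0.81 for CG17192 with CG6283, over 8 libraries), and 2 of the 7 were barely detected, so this mean does not stand for each member. The mean centred log2 CPM of the 7 members was set against 9403 other genes with a mean of at least 2 CPM, over 8 libraries, as a description only. After each genotype's mean was removed, the most alike were Bace (r = 0.98), CG18547, Ser7, Spn27A, CG12374, CG31200, Diedel3 and CG6225 (r = 0.95 for the last). Removing the means leaves fewer free values than libraries, and the highest of 9403 genes were taken. Such a choice gives high r values among unrelated genes too, and how high was not measured. With the genotype means left in, they were Pink1, Bace, CG12374 and PKD (r = 0.98 each). All genes were read from the same 8 libraries and so share their depth and RNA. Bace, an aspartic protease gene, and CG12374, a metallocarboxypeptidase gene, are on both lists and were both lower in the mutant. The ranking with genotype means left in favours genes that are lower in the mutant, so this direction is no separate result. Bace was at 311 ± 40.0 CPM in the mutant and 1113 ± 347 CPM in the control, and CG12374 at 804 ± 173 CPM in the mutant and 3684 ± 1345 CPM in the control (SD, n = 4 each). Of the 8 genes most alike within genotypes, Bace, CG12374 and Diedel3 were lower in the mutant and CG18547, Ser7 and Spn27A higher. CG31200 and CG6225 did not pass the threshold, so these 8 genes did not share a direction between the genotypes.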

How the data were processed

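The deposited table holds the authors' counts of reads for each gene, whole numbers in 8 columns whose totals differ, so it was not normalized. Per the submitters' processing notes the build was dm3 and DESeq was used, with no role given. Aligner, counter, annotation and strand handling: not given in the sources used here. Reads of close copies may therefore have been split or dropped, and strands cannot be told apart. Libraries were prepared by standard Illumina protocols after Trizol extraction, per the labels' protocols.

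Groups and replicate numbers came from the sample titles. The row CG00000, which names no gene (0.0154% to 0.0176% of counts), was left out. Symbols, gene order and strands came from RefSeq and Ensembl annotations of Release 6, and CG numbers were matched by locus tag for 11482 rows and by synonym for 456. edgeR 4.0.16 in R 4.3.3 was used with filterByExpr (minimum count 10), TMM scaling and its robust quasi-likelihood test, two-sided, with genotype as the only term. Scripts for this test were checked on simulated data. CPM are counts over the TMM-scaled library size. Standard errors were taken as log2 fold changes, without sign, over the square root of F. Alternatives were RLE and upper quartile scaling, no filter, DESeq2 1.42.0, a fit without robust estimation, a replicate block and leaving out each library. Deviations from the genotype mean correlated at r between -0.10 and 0.21 over 4 pairs of same-numbered libraries. For differently numbered libraries r lay between -0.20 and 0.23. So few pairs cannot settle whether equal numbers mark samples that belong together, and the block is given as an alternative only.

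Members and lists were chosen with earlier results of these data known, and the ratios between members were added after the values were seen. All members are named. Each other list gives up to 4 genes by adjusted p among those past the threshold, and likeness names 8 genes within genotypes and 4 without. magro, Hr96, LpR2, Mtp, TwdlT, RYa-R, CG31077 and markers that did not pass were named after their values were seen. The labels give no batch, and call the collections biological replicates. Planned comparisons of promoter and protein sequences were not made.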

Additional observations from a re-analysis of the deposited data

Results flagged for a closer look

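Single libraries far from the other 3 of their genotype were looked for in 22 genes, or 44 groups of 4, where chance flags about 1 group in 20. CG17191 was highest in control replicate 2, at 0.948 CPM against 0.489 CPM in the next library. CG6271 was lowest in mutant replicate 1, at 0.427 CPM against 0.55 CPM in the next library. Both genes had 28 counts or fewer in every library. The lipoprotein gene apolpp was lowest in control replicate 4, at 1698 CPM against 1895 CPM in the next library, which was still above every mutant library. The acid lipase gene magro was highest in mutant replicate 2, at 31.6 CPM against 20.8 CPM in the next library. CG6296 in control replicate 1 was not among them.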

How the results depend on the processing

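The direction of CG6296, CG6295, CG17192, CG6283, CG6277 and CG6271 was kept in all 14 alternatives, whereas CG17191 lay between -0.58 and 0.12 on the log2 scale with 1 library left out, and above 0 without control replicate 2. With 1 library left out, between 1 and 4 members were lower, and with the replicate block 2 were lower. The block lost the call of CG6295 and changed no other call of a member. The mean summed level ranged from 174 to 201 CPM in the mutant and from 397 to 470.1 CPM in the control when 1 library was left out. Across all genes 2063 passed the threshold, against 1476 to 1702 with 1 library left out and 2405 with the replicate block. TMM put 43.1% of calls on the higher side and upper quartile scaling 63.2%, which moved the median log2 fold change of all genes to 0.06.

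Other counts moved as follows. Of the other pancreatic-type lipases 1 to 2 were lower and 1 to 3 higher with 1 library left out, and 1 was higher without the filter. Of the acid lipases 1 was lower in DESeq2 and without robust estimation, and 0 to 1 with 1 library left out. Of the lipid uptake genes 0 to 1 were higher with 1 library left out. Of the regulators, with Hr78 included in each count, 5 were lower without robust estimation, 6 with the block, 6 in DESeq2 and 2 to 5 with 1 library left out. Of the genomic neighbours 0 to 1 were lower with 1 library left out, and 1 was higher with upper quartile scaling. The cause of these shifts was not tested. CG17191 and CG6271 are limited by depth.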
